A study of Homo sapiens with 2 samples.

Results

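The Fanconi anaemia and homologous recombination genes, 34 in number and listed by their role in either pathway, were followed in mRNA recovered with an antibody to QKI, an RNA-binding protein of the STAR family that regulates splicing, export and stability of mRNA. A gene was included if the platform annotation of the array gave its symbol, and no other, to at least 1 probe set. By this rule 30 of the 34 genes were measured, through 82 probe sets, among 18132 genes in all. FANCA, FANCD2, BRCA2 and RBBP8 were not analysed here.

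Homologous recombination repairs broken chromosomes by copying an intact sister strand, and the Fanconi anaemia pathway prepares DNA that is blocked by crosslinks between its strands for the same repair. A nuclease complex first trims the broken ends, BRCA1, PALB2 and BRCA2 then prepare the exposed strand for strand exchange, in which it pairs with the matching sequence, and helicases and nucleases resolve the joined molecules. Most of these genes are transcribed in dividing cells, and several are inherited cancer genes.

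The RNA came from SW480, an established human colorectal cancer cell line. Cells were transfected with 100 pmol of siRNA against the lncRNA NONHSAT136151 (siLnc) or with control siRNA (siNC), were lysed 48 h later, and RNA bound to the anti-QKI antibody was hybridised to PrimeView arrays. Among the siRNAs listed in the supplement of the study, 1 against the lncRNA is printed with the same sequence as the control siRNA. The labels do not say which siRNA the siLnc cells received, so what the siLnc minus siNC differences compare rests on the labels alone. There was 1 array of siLnc cells and 1 array of siNC cells, so no difference given here has a replicate check, no p-value could be computed, and precision is limited by having so few arrays. Each value is a log2 signal, and each difference is the log2 signal of siLnc minus that of siNC, with the mean over probe sets as the value of a gene. An SD given after a gene is the spread between its probe sets on the same arrays and not an error between samples. IgG precipitates and input RNA were not analysed here, so more mRNA bound to QKI and more of that mRNA in the cells cannot be told apart, and neither can more cells that express a gene and more RNA per cell.

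Several properties of the arrays bear on every member. Over all genes the median difference was -0.06. A background signal of 4.35 was set as the 95th percentile of 55 probe sets of muscle, retina, testis, brain and other genes that SW480 cells should lack. The medians of these probe sets were 2.01 in siLnc and 2.12 in siNC, and the highest gene had 6.04 in siLnc and 6.40 in siNC. The line is therefore a strict one, and a signal below background is not shown to be an absent mRNA. Of the 10 colorectal epithelial markers, EPCAM had 9.68 in siLnc and 9.86 in siNC and KRT18 had 11.73 in siLnc and 11.63 in siNC, while CDX1 and CDH1 lay below background on both arrays. The epithelial markers were not all level, since CDX2 had 6.22 in siLnc and 7.17 in siNC (-0.95) and ASCL2 had 6.71 in siLnc and 7.63 in siNC (-0.92), and these 2 of the 10 were at least 1.5-fold lower. The part of this shift in the differences of the members was not tested. Of 12 listed gland and blood genes, 11 were measured and all 11 were higher in siLnc by 2.0 to 6.83. Their signals were 4.47 to 10.09 in siLnc and 1.88 to 5.64 in siNC. Of all genes, 0.651% were at least 2-fold higher. The list was drawn up with earlier results of these data known, so the shared direction of its genes is no independent check. The part of gland and blood RNA in the differences of the members was not tested. QKI mRNA itself had 6.10 in siLnc and 6.66 in siNC, and all 18 bacterial hybridization controls were lower in siLnc, with differences from -1.3 to -0.20. Because the annotation names no probe set for NONHSAT136151, its knockdown was not checked here.

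Promoter sequences of the members were also searched for short motifs, a property outside the array measurement. The windows below are from RefSeq (GRCh38.p14), run 5′ to 3′ from 250 bases before to 50 bases after the transcription start, and belong to the 4 genes with the largest differences among those with an entry. Capitals mark the E2F site TTCCCGC or its reverse complement GCGGGAA, the sequence at which E2F factors act on genes of S phase.
RAD54L promoter, chr1:46247438-46247737, strand +: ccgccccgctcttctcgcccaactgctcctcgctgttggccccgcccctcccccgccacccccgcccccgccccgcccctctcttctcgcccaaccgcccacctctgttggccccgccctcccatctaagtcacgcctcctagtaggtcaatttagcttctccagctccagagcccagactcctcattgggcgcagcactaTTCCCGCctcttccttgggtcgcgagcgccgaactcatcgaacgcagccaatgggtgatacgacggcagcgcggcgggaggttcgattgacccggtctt
BARD1 promoter, chr2:214809634-214809933, strand -: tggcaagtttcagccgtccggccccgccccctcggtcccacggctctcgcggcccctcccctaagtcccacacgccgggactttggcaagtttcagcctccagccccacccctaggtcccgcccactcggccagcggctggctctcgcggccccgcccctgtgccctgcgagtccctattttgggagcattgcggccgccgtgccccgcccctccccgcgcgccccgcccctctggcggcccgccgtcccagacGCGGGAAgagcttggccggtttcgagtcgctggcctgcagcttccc
BLM promoter, chr15:90717096-90717395, strand +: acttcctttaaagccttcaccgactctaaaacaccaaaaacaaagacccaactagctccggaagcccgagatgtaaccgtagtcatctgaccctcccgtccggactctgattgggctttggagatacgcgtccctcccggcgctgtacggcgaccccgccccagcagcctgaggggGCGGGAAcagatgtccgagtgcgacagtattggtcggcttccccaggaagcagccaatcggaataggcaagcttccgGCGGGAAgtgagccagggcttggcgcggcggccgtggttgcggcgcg
RAD51AP1 promoter, chr12:4538640-4538939, strand +: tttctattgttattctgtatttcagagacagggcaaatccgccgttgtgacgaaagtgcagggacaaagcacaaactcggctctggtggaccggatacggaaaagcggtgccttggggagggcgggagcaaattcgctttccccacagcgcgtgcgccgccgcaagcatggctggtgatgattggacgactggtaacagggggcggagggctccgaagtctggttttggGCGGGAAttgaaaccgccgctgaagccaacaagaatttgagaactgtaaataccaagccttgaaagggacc
Relative to the transcription start, the site began at -49 in RAD54L, at -21 in RAD51AP1 and at 4 in BARD1, and BLM had 2 sites, at -74 and at 3. With the first listed window for each gene, 13 of 26 members held the site (50%), against 8.89% of 14424 genes on the array. Of all 35116 promoter windows of that length, 6.55% held it. The first window need not be the main promoter of a gene, and other windows of the members were not counted. Among the members at least 1.5-fold higher it was in 5 of 6 windows, and among the others in 8 of 20. The CCAAT box, searched as CCAAT and ATTGG, was in 11 of 26 member windows (42.3%) and in 36.4% of genes on the array, and the CHR element, searched as TTTGAA and TTCAAA, in 3 (11.5%) and in 12.1%. Both strands were searched, and none of these motifs contains another. Over all genes, those with the E2F site had a median difference of 0.03 (1282 genes) and those without it -0.06 (13142 genes). These groups were not matched for signal, and dim and bright genes had unlike medians. A match is a run of letters and not a bound site, and these arrays measured recovered mRNA, not transcription.

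mRNAs of recombination mostly had higher signals in siLnc than in siNC, by modest amounts. The median difference of the 30 genes was 0.23, against -0.06 for all genes. Above 0 were 22 members (73.3%), against 39.2% of all genes, while 2 lay at 0 and 6 below. At least 2-fold higher was 1 member, RAD54L, where 0.651% of all genes were, and no member was at least 2-fold lower, where 0.121% of all genes were. By the lower threshold of 1.5-fold, 7 members (23.3%) were higher, against 4.26% of all genes, and none was lower, against 1.75%. These 7 were RAD54L, RAD54B, BARD1, BLM, RAD51AP1, FANCL and FANCB, and 5 of them are each read by 1 probe set.

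**Figure D1:**
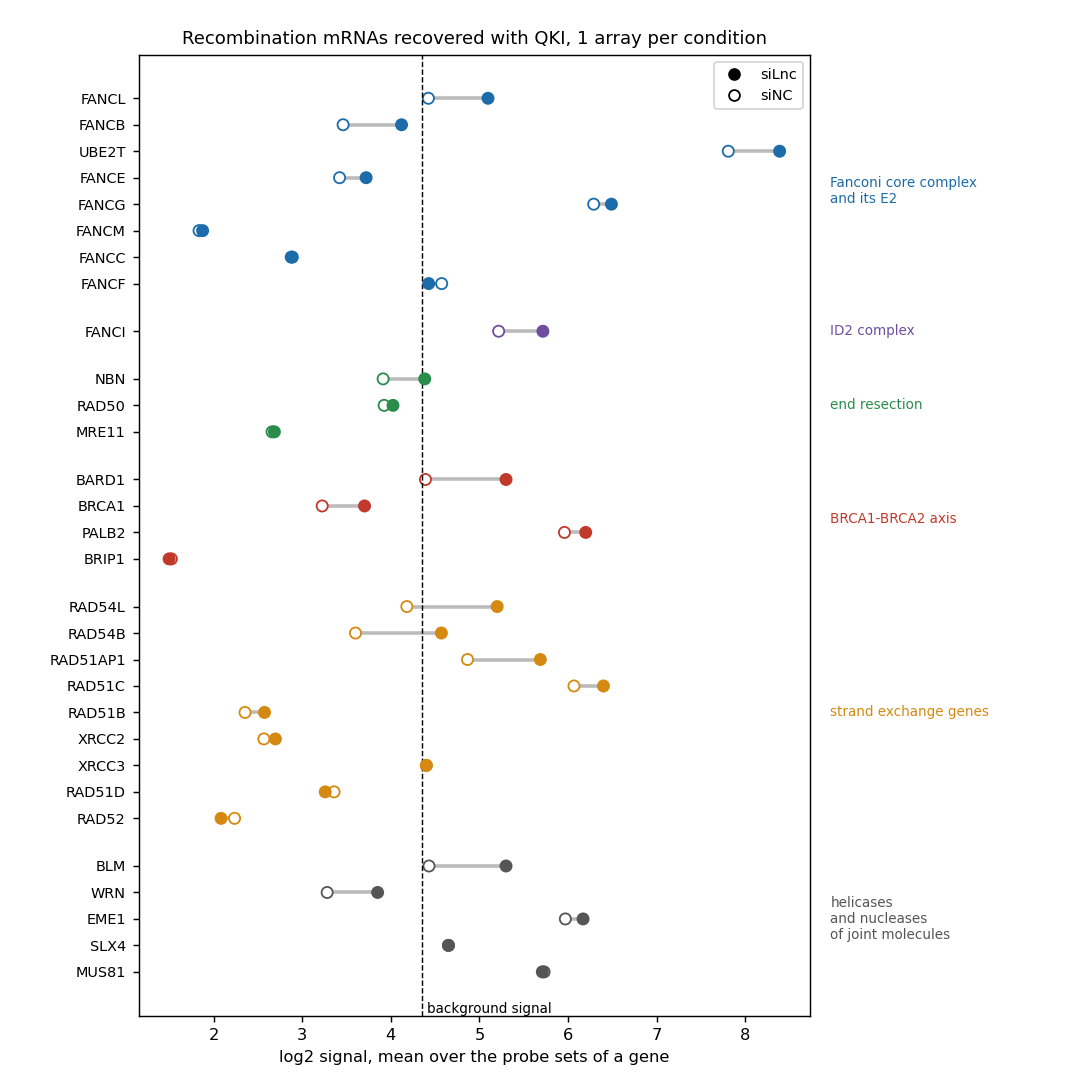
Log2 signal of the 30 measured genes (x axis, mean over probe sets) on the siLnc array (filled) and the siNC array (open), grouped by role, 1 array per condition. RAD54L, RAD54B, BARD1, BLM and RAD51AP1 have the longest lines, and the dashed line marks the background signal of 4.35.

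Among the members of the core complex, the E3 ligase of the Fanconi pathway, and its E2, the largest differences were in FANCL, FANCB and UBE2T. FANCL, the RING subunit that carries out the reaction, had a log2 signal of 5.10 in siLnc and 4.42 in siNC, a difference of 0.67 ± 0.20 (SD over 3 probe sets). All of its probe sets were higher (0.88, 0.65 and 0.49), and the brightest had 7.10 in siLnc and 6.45 in siNC, while the other 2 lay below background. UBE2T, the E2 enzyme that hands ubiquitin to FANCL, was the brightest member of all, with 8.39 in siLnc and 7.81 in siNC and a difference of 0.58 in its 1 probe set. FANCB, which sits with FANCL in the catalytic module, had 4.12 in siLnc and 3.46 in siNC, below background on both arrays, so that its difference of 0.66 is not exact in size. FAAP100, a core complex partner outside the members, had a smaller difference of 0.095 over 2 probe sets (0.00 and 0.19), so no pattern of the module is read from these values.

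The other core subunits differed less. FANCE, which contacts FANCD2, had 3.72 in siLnc and 3.42 in siNC, with all 3 probe sets above 0 (0.21 to 0.47), and FANCG, of the module with FANCA, had 6.49 in siLnc and 6.29 in siNC, a difference of 0.20 that was 0.02 after quantile normalization. FANCF had 4.43 in siLnc and 4.57 in siNC, and its probe sets did not share a direction (-0.35, -0.28 and 0.19), the brightest being the one above 0. FANCC, the partner of FANCE and FANCF, had 2.87 in siLnc and 2.89 in siNC, with -0.29 in its brightest probe set and 0.17 and 0.08 in the other 2. FANCM, the DNA translocase that anchors the complex on chromatin, averaged 1.87 in siLnc and 1.83 in siNC, and all 3 of its probe sets lay below background, with differences from -0.37 to 0.70. The median over the 8 measured genes of this group was 0.25, and 0.53 when each gene was read by its brightest probe set.

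The substrate of the ligase is the clamp of FANCI and FANCD2, which closes on damaged DNA once it carries ubiquitin. FANCI had 5.72 in siLnc and 5.22 in siNC, a difference of 0.50 ± 0.26 (SD over 3 probe sets). All 3 probe sets were higher in siLnc, but unequally. The dimmest had 4.96 in siLnc and 4.21, below background, in siNC (0.75), and the brightest had 6.26 in siLnc and 6.03 in siNC (0.23).

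For the complex of MRE11, RAD50 and NBN, which binds broken ends and starts their trimming, the 3 genes had unlike differences. NBN, which ties the complex to the kinase ATM, had 4.38 in siLnc and 3.91 in siNC, a difference of 0.47 ± 0.21 (SD, 5 probe sets), with every probe set higher (0.19 to 0.74). RAD50, the ATPase that tethers the ends, had 4.02 in siLnc and 3.92 in siNC, a difference of 0.10 ± 0.08 (SD, 3 probe sets). MRE11, the nuclease, had 2.68 in siLnc and 2.66 in siNC as a mean, but 4 of its 5 probe sets lay below background. The other one had 5.85 in siLnc and 5.40 in siNC, a difference of 0.45, like that of NBN in its brightest probe set (0.47). RAD50 had 5.01 in siLnc and 4.97 in siNC (0.04) in its brightest probe set, so this value was lower than those of its partners.

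BARD1, the partner without which BRCA1 is unstable, had 5.30 in siLnc and 4.39 in siNC, a difference of 0.91 in its 1 probe set. BRCA1 had 3.70 in siLnc and 3.22 in siNC as a mean, a difference of 0.48 ± 0.39 (SD, 5 probe sets). Its brighter probe sets showed more than its mean. The 2 that exceeded background on at least 1 array had 6.24 in siLnc and 5.54 in siNC (0.70), and 4.64 in siLnc and 3.82 in siNC (0.82), while the 3 below it ran from -0.14 to 0.66. These 2 and 1 further probe set of BRCA1 are of a class (_x_at) whose probes can match other transcripts, and without that class the mean was 0.11.

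PALB2, the bridge between BRCA1 and BRCA2, had 6.20 in siLnc and 5.96 in siNC, a difference of 0.24 that was 0.08 after quantile normalization. BRIP1, a helicase that binds BRCA1, had 1.90 and 1.09 in siLnc and 1.73 and 1.31 in siNC, with both probe sets below background and on opposite sides of 0 (0.17 and -0.22), so no direction is read from it. Over the 4 measured genes of the BRCA1 and BRCA2 axis the median was 0.36, and 0.17 without _x_at and _s_at probe sets.

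The largest differences of the whole set were in the strand exchange genes. RAD54L, a motor protein that promotes strand invasion and remodels the joint, had 5.20 in siLnc and 4.18 in siNC, a difference of 1.02 (2.03-fold), which fell short of 2-fold after cyclic loess (0.98), quantile normalization (0.93) and centring on the genes nearest in signal (0.97). RAD54B, its paralog, had 4.57 in siLnc and 3.6 in siNC, a difference of 0.97 (1.96-fold). Both are read by 1 probe set that lay below background in siNC and above it in siLnc, so the size of both differences is not exact. Another probe set, shared by RAD54B with FSBP, a gene in the same locus, had 1.85 in siLnc and 1.97 in siNC, below background, and counting it brought RAD54B to 0.43.

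RAD51AP1, which stimulates the joining of DNA molecules, had several probe sets that all gave a large difference. Its signal was 5.69 in siLnc and 4.87 in siNC, a difference of 0.82 ± 0.15 (SD, 4 probe sets). The differences were 0.76, 0.75, 0.74 and 1.04, the last in a probe set with 5.09 in siLnc and 4.05 in siNC. Every probe set lay above background on at least 1 array, and the brightest had 6.57 in siLnc and 5.81 in siNC.

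The genes of the 2 complexes that assist strand exchange (RAD51B, RAD51C, RAD51D and XRCC2 in one, RAD51C and XRCC3 in the other), had smaller differences than RAD54L, RAD54B and RAD51AP1. RAD51C, in both complexes, had 6.40 in siLnc and 6.07 in siNC, with differences of 0.74, 0.50 and 0.09 in its bright probe sets and 0.00 in a dim one. RAD51D had 3.26 in siLnc and 3.36 in siNC, and its brightest probe set (4.95 in siLnc and 5.50 in siNC) had the lowest difference among all 82 member probe sets, -0.55. XRCC3 had 4.40 on both arrays. RAD51B (2.57 in siLnc and 2.35 in siNC) and XRCC2 (2.70 in siLnc and 2.57 in siNC) lay below background in every probe set. RAD52, which anneals complementary strands, had 2.08 in siLnc and 2.23 in siNC over 12 probe sets, all of them below background and 8 of them below 0. Over the 9 genes of this group the median was 0.22, and their range, from -0.15 to 1.02, was the widest of the 6 role groups.

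**Figure D2:**
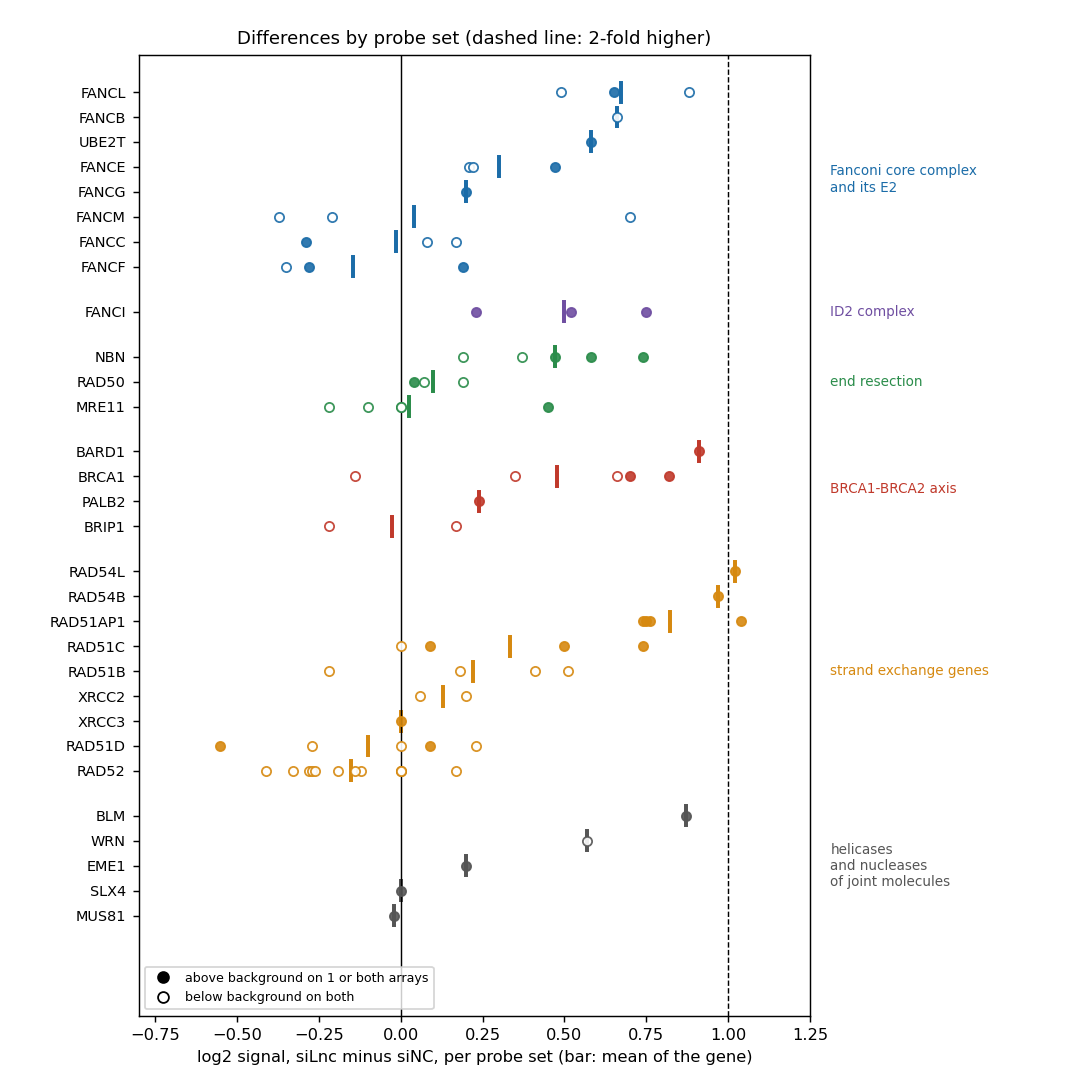
Log2 signal of siLnc minus siNC for each of the 82 member probe sets (points) and the mean of each gene (bars), with filled points above the background signal on at least 1 array. The 4 probe sets of RAD51AP1 lie at 0.74 to 1.04, whereas those of RAD51D run from -0.55 to 0.23.

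Within the role group of enzymes that act on joined molecules, the helicases BLM and WRN had larger differences than the nuclease genes. BLM, which takes apart double Holliday junctions together with TOP3A, RMI1 and RMI2, had 5.30 in siLnc and 4.43 in siNC, a difference of 0.87 in 1 probe set. WRN, a helicase of the same RecQ family, had 3.85 in siLnc and 3.28 in siNC, a difference of 0.57 below background. Of the partners of BLM, RMI1 had a difference of 0.60 over 4 probe sets (0.32 to 0.90), RMI2 had 0.24 and TOP3A -0.02. MUS81, the endonuclease that cuts branched DNA, had 5.71 in siLnc and 5.73 in siNC, and EME1, its partner, had 6.17 in siLnc and 5.97 in siNC, a difference of 0.20 that was 0.03 after quantile normalization. SLX4, the scaffold that holds the nucleases, had 4.65 on both arrays.

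Values that are exactly alike on both arrays, as in XRCC3 and SLX4, were frequent. Of the member probe sets 9 of 82 (11.0%) had the same value on both arrays to 2 decimals, and of all 49292 probe sets 9.07% had, whereas 147 probe sets differed by 0.01 and 129 by -0.01. A difference of 0.00 is therefore not read as a measured lack of change.

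The differences were set against those of genes with like signal, since dim and bright genes had unlike medians. Below a mean signal of 4.35 the 15 members had a median of 0.13, and the 11762 genes there -0.11. Above 0 were 11 of these 15 members, against 27.7% of the genes. At or above that signal the 15 members had a median of 0.33, and the 6370 genes there 0.10. Here too 11 of the 15 members lay above 0, but so did 60.5% of the genes, a smaller gap than over all signals. Relative to the median of the genes nearest in signal (250 on either side), 24 members lay higher and 6 lower, with a median of 0.23. Most of the members 1.5-fold higher had middle signals. Of the 9 members with a mean signal from 4 to 5, 5 reached 1.5-fold, as did 7.67% of the 2543 genes in that range. Between 6 and 7 none of 4 members reached 1.5-fold, where 11.2% of genes did. At that share 4 members are too few to show a shortfall.

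**Figure D3:**
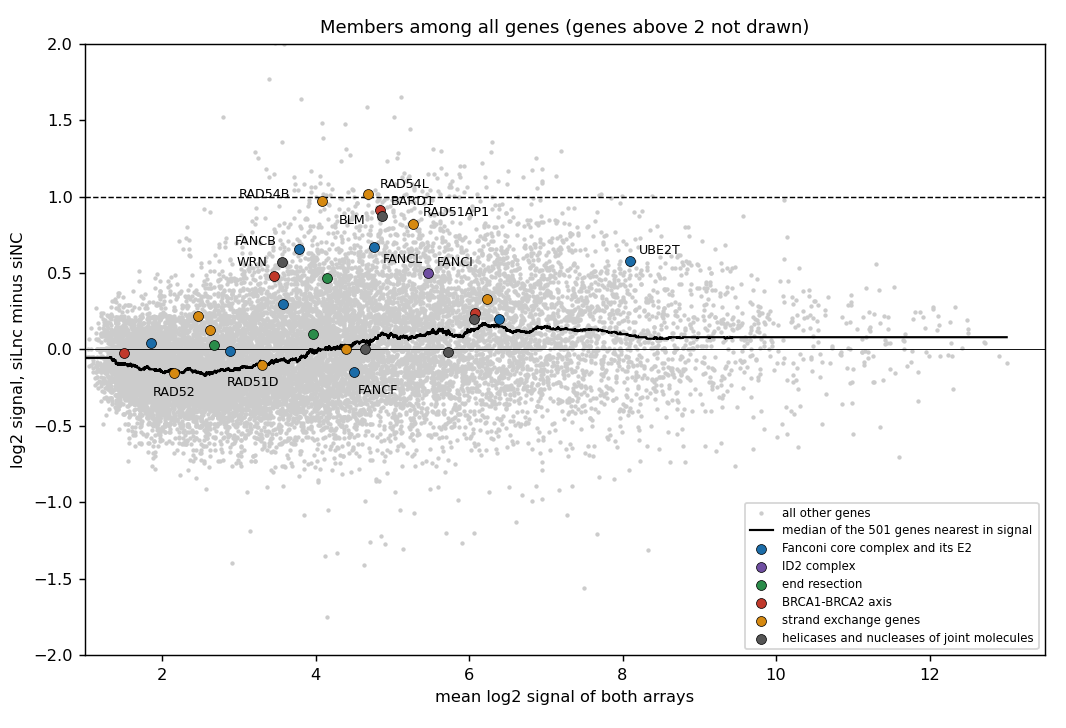
Difference of siLnc minus siNC (y axis, log2) against the mean log2 signal of both arrays (x axis) for the members (coloured) and all other genes (grey, 10 above 2 not drawn), with the median of the genes nearest in signal as a line. RAD54L (1.02) lies just above the dashed 2-fold line, RAD52 (-0.15), RAD51D (-0.10) and XRCC3 (0.00) lie near the line of the median, and FANCF (-0.15) lies below it.

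Probe sets of a gene often disagreed. Some did so above background on both arrays, with 0.19 and -0.28 in FANCF and -0.55 and 0.09 in RAD51D. Among the 17 members read by several probe sets, 7 had all of them above 0 (FANCE, FANCI, FANCL, NBN, RAD50, RAD51AP1 and XRCC2), 9 had probe sets on both sides of 0, and none had all of them at or below 0. The 26 member probe sets above background on both arrays had a median of 0.35, with 21 above 0, 3 below and 2 at 0, against a median of 0.11 and 60.7% above 0 in the 17239 such probe sets of all genes. The 47 below background on both arrays had a median of 0.00, with 23 above 0, 17 below and 7 at 0, against -0.11 and 28.6% for 30034 such probe sets. At least 2-fold higher were 2 of the 82 probe sets, that of RAD54L and 1 of RAD51AP1, where 1.51% of all probe sets were, and none was 2-fold lower, where 0.185% were.

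Other genes of break repair gave a mixed picture beside the members. For 35 further Fanconi and recombination genes the median was 0.07, with 19 above 0 (54.3%, against 39.2% of all genes) and 16 below. At least 1.5-fold higher were 4 (11.4%, against 4.26% of all genes), and none was past 2-fold in either direction. EXO1, the nuclease of long-range resection, had 4.99 in siLnc and 4.05 in siNC (0.94). Its 1 probe set lay below background in siNC, so the size of this difference is not exact. RECQL, a RecQ helicase, had 4.82 in siLnc and 4.01 in siNC (0.82), with all 5 probe sets at 0.70 to 0.93, and BRCC3, a deubiquitinase that works with BRCA1, had 5.22 in siLnc and 4.51 in siNC (0.70). The RecQ family did not share a direction, since RECQL4 had -0.07 and RECQL5 -0.10. The lowest were MAD2L2, an adaptor of translesion synthesis (8.57 in siLnc and 8.99 in siNC, -0.42), and the core complex partners FAAP24 (-0.29) and FAAP20 (-0.28).

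In end joining, the route that seals breaks without a template, the median was 0.19 over 11 genes. Above 0 were 9 (81.8%, against 39.2% of all genes), and 3 were at least 1.5-fold higher (27.3%, against 4.26%). These shares were no smaller than those of the members (73.3% and 23.3%), so higher signals in siLnc were not particular to the members. XRCC5 and XRCC6, which form the Ku ring on broken ends, had 7.83 in siLnc and 6.91 in siNC, and 9.26 in siLnc and 8.46 in siNC, differences of 0.93 and 0.80 at signals far above background. PARP1, a sensor of strand breaks, had 5.71 in siLnc and 4.93 in siNC (0.78), and DCLRE1C, the nuclease Artemis, was the 1 gene below 0 (-0.26). The 12 genes of break signalling had a median of 0.13, with 8 above 0 (66.7%) and 1 at least 1.5-fold higher (8.33%). Here CHEK1, a checkpoint kinase, led with 0.87, followed by RIF1, which restrains resection (0.50), and ATR, the kinase that CHEK1 answers to (0.46). ATM, the kinase that responds to broken ends, had 3.19 in siLnc and 3.35 in siNC (-0.16), TP53BP1 -0.04 and the histone H2AX -0.04.

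**Figure D4:**
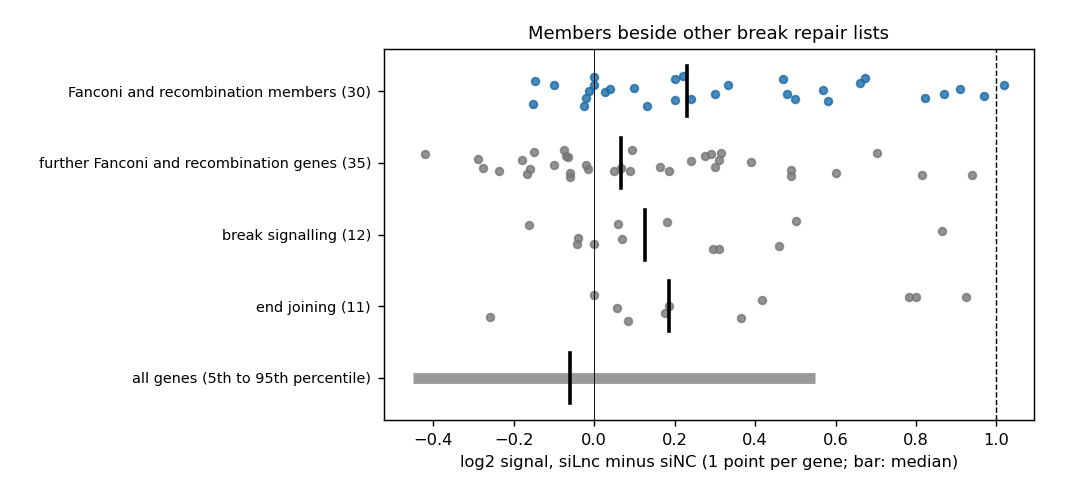
Difference of siLnc minus siNC (x axis, log2) for each gene of the 30 members and of 3 other lists of break repair genes, with the median of each list as a bar and the 5th to 95th percentile of all genes (-0.45 to 0.55) at the bottom. The medians are 0.23 for the members, 0.07 for further recombination genes, 0.13 for break signalling and 0.19 for end joining, against -0.06 for all genes.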

How the data were processed

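QKI-bound RNA of SW480 cells was measured on 2 PrimeView arrays, 1 per condition, with groups taken from the sample labels. The authors deposited log2 signals, 1 for each probe set and array. Per the methods, an outside firm ran the arrays and processed their values, and GCOS is the software named in the submitters' processing notes. How signals were background-corrected and scaled was not given in the sources used here. Their log2 scale was read from the values.

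Of 49371 probe sets, 79 controls were left out. The platform annotation named the probe sets, and 44988 with exactly 1 symbol gave 18132 genes. Gene identifiers of RefSeq changed 0 member symbols. Differences (siLnc minus siNC) were averaged over the probe sets of a gene, and 2-fold and 1.5-fold thresholds were used. The members and the lists were chosen with earlier results of these data known. All 34 members were accounted for, and of other repair genes the 3 largest in each direction of each list were named. Promoters were scanned with 1 window per gene. Calculations used Python 3.11.15, numpy 2.4.6, pandas 2.3.3 and scipy 1.17.1, with limma 3.58.1 in R 4.3.3 for normalization. The calculation was tested on simulated data with differences larger than that of any member. That test does not show how well differences of the members' size are recovered. Alternatives were cyclic loess, quantile normalization, median centring, centring on the genes nearest in signal, the brightest or median probe set, a background filter, shared probe sets and thresholds of 1.5-fold and 3-fold. Leaving out identical values and _x_at and _s_at probe sets was added after the data were seen.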

Additional observations from a re-analysis of the deposited data

How the results depend on the processing

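No paired analysis was possible because each condition has 1 array, and no replicate could be left out. The median of the members lay between 0.22 and 0.45 over 10 alternatives, and the number above 0 between 17 (of 23 genes with a probe set above background) and 27 (of 30, after median centring). The count of members at least 2-fold higher was 1 as deposited, 0 with cyclic loess, quantile normalization or centring on the genes nearest in signal, 2 after median centring, 7 at 1.5-fold and 0 at 3-fold, since RAD54L (0.93 to 1.05) and RAD54B (1 after median centring) lie at the threshold. No member was 2-fold lower under any of these alternatives. With the brightest probe set the median was 0.53 for the Fanconi core complex, 0.23 for FANCI and 0.45 for end resection. With probe sets above background it was 0.45 for end resection, 0.76 for the BRCA1 and BRCA2 axis, 0.63 for the strand exchange genes, and 0.53 for break signalling. Both alternatives drop dim probe sets, and the second put the median of all genes at 0.095, against -0.06 as deposited. Without _x_at and _s_at probe sets the median was 0.17 for the BRCA1 and BRCA2 axis and -0.02 for break signalling. Cyclic loess, quantile normalization and centring on the genes nearest in signal lowered PALB2 (0.24 as deposited) to 0.11, 0.08 and 0.11, FANCG (0.20) to 0.06, 0.02 and 0.05, EME1 (0.20) to 0.07, 0.03 and 0.07, and the median of the helicases and nucleases (0.20) to 0.07, 0.03 and 0.07. RAD51C (0.33) had 0.17 with the last of these. At the 2-fold threshold, the share of all genes that were higher ran from 0.375% (quantile normalization) to 1.99% (probe sets above background), against 0.651% as deposited, and the share lower from 0.121% to 0.366%. The spread between cultures is not known.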

Other observations

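Probe sets with the same value on both arrays were most frequent where signals were low. Their share was 18.1% at mean log2 signals below 2, 5.10% between 4 and 5 and 1.33% at 8 and above. The cause was not tested. Among the members they were 3 probe sets of RAD52, 2 of MRE11 and 1 each of RAD51C, RAD51D, XRCC3 and SLX4. Without them the median of the members was 0.27 over 28 genes.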
